A study of Homo sapiens and Mus musculus with 7 samples.

Results

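The drug-metabolising enzyme families described here are 144 genes, 84 on the mouse array and 60 on the human array, of 37968 genes measured in all. They were taken by symbol: cytochrome P450 families CYP1 to CYP4, glutathione transferases of the alpha, mu and theta classes (GSTA, GSTM, GSTT), UDP-glucuronosyltransferases (UGT1A, UGT2A, UGT2B) and the SULT1 sulfotransferases, where a probe set names exactly 1 gene. In mouse these were 105 probe sets for 84 of 18193 genes, and in human 109 probe sets for 60 of 19775 genes. Of the human members 53 are protein coding, 5 are transcribed pseudogenes, 1 is a pseudogene and 1 a long noncoding RNA. Another 9 mouse and 20 human probe sets name a family member together with other genes, which is how most of the UGT1A locus is annotated, and they stand apart from the member counts below.

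Expression was measured on 7 Affymetrix arrays, 1 per group. The groups were cells with partial knockdown of Fas (CD95), the death receptor for Fas ligand, liver with Fas knockout, and their controls. HepG2, a human liver cancer line, carried either stable FAS knockdown by the hairpin shRNA6 or the control vector pLKO, the lentiviral vector that also serves to express hairpins. HeyA8, a human ovarian cancer line, carried stable FAS knockdown by shRNA4, stable knockdown by shRNA6, or pLKO. Mouse liver was from Fas knockout (KO) and wild-type (WT) C57/BL6 males 2 months old, 1 sample each, and the labels name neither the knockout allele nor the number of animals behind a sample. No group has a replicate, so a ratio between arrays has no error of its own, and precision is limited by having so few arrays.

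Phase I enzymes, chiefly the cytochromes P450 of the endoplasmic reticulum, oxidise drugs, steroids, bile acids and fatty acids. Phase II enzymes then attach glutathione, glucuronic acid or sulfate to the products, which transporters export. In liver the nuclear receptors CAR (NR1I3) and PXR (NR1I2), the aryl hydrocarbon receptor (AHR) and the oxidative stress factor NRF2 are known to set the transcription of many of these genes, on top of liver factors such as HNF1 and HNF4.

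Values are MAS5 signals on a linear scale. Ratios are log2 of (signal + c), where c is the 25th percentile of the species' table (12.6 in human, 20.5 in mouse). Adding c shrinks the ratios of dim genes. To be kept, a gene had to exceed the array median on 1 or both arrays of the pair. The median lay between 57.8 and 63.4 on the human arrays and at 75.2 in KO and 79.9 in WT liver. The targeted gene was lower in every pair. FAS read 631 in HepG2 shRNA6 and 1087 in HepG2 pLKO, or 58.1% of the control, and in HeyA8 it read 1184 with shRNA4 and 856 with shRNA6, against 2104 with pLKO. Mouse Fas read 169 in KO and 560 in WT liver, which leaves 30.3% of the WT signal in the KO sample. Hepatocyte markers were above the array median for 9 of 9 genes in both HepG2 arrays and both livers, while in HeyA8 8 of 9 were below it with each hairpin and 9 of 9 with pLKO.

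Most of these genes were above the array median in liver and fewer were in the cell lines. Of the 84 mouse genes, 68 were above it in KO liver and 67 in WT liver. Of the 60 human genes, 30 were above it in HepG2 shRNA6 and 27 in HepG2 pLKO, against 12 in HeyA8 shRNA4, 13 in HeyA8 shRNA6 and 13 in HeyA8 pLKO. As shares these are 81.0% of members in KO and 79.8% in WT liver, where 62.4% of all genes in KO and 62.3% in WT liver were above it. In HepG2 they are 50% in shRNA6 and 45.0% in pLKO, where 58.2% of all genes in shRNA6 and 58.5% in pLKO were, so the members' share there is below that of all genes. The summed signal of all members was 673174 in KO and 657091 in WT liver, and 22057 in HepG2 shRNA6 and 17644 in HepG2 pLKO. In HeyA8 it was 3299.9 with shRNA4, 3448 with shRNA6 and 3424 with pLKO.

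In HepG2, FAS knockdown came with higher signals for a small group of members. Of the 60 members 32 were kept, and 7 of these (21.9%) were at least 2-fold higher in shRNA6 than in pLKO, where 2.65% of all 12167 kept genes were. None of the 32 was 2-fold lower, against 2.56% of all kept genes. The 7 were the alpha-class transferase GSTA1, the estrogen sulfotransferase SULT1E1, 3 CYP3A genes (CYP3A43, CYP3A5 and CYP3A7-CYP3A51P), the fatty acid omega-hydroxylase CYP4F3 and the CYP2B pseudogene CYP2B7P. Of the 7, 4 (SULT1E1, CYP2B7P, CYP3A43 and CYP3A5) were kept only through the shRNA6 array, so that a difference was part of how they entered. Among the 25 members above the median on both HepG2 arrays, 3 were at least 2-fold higher (GSTA1, CYP4F3 and CYP3A7-CYP3A51P), where 0.504% of all such genes were. With a filter on the mean of both arrays, chosen after seeing the data, 6 of 29 members were, where 1.21% of all genes were. At 1.5-fold 12 of the 32 were higher, where 6.48% of all kept genes were, and 1 was lower, where 6.16% were. Counted by probe set, 11 of 56 kept member sets were 2-fold higher (3.12% of all kept single-gene sets) and 1 was lower (2.69% of all). The median ratio of the 32 members was 0.20, against -0.01 over all kept genes, and 21 of the 32 lay above 0, as did 48.3% of all kept genes.

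**Figure D1:**
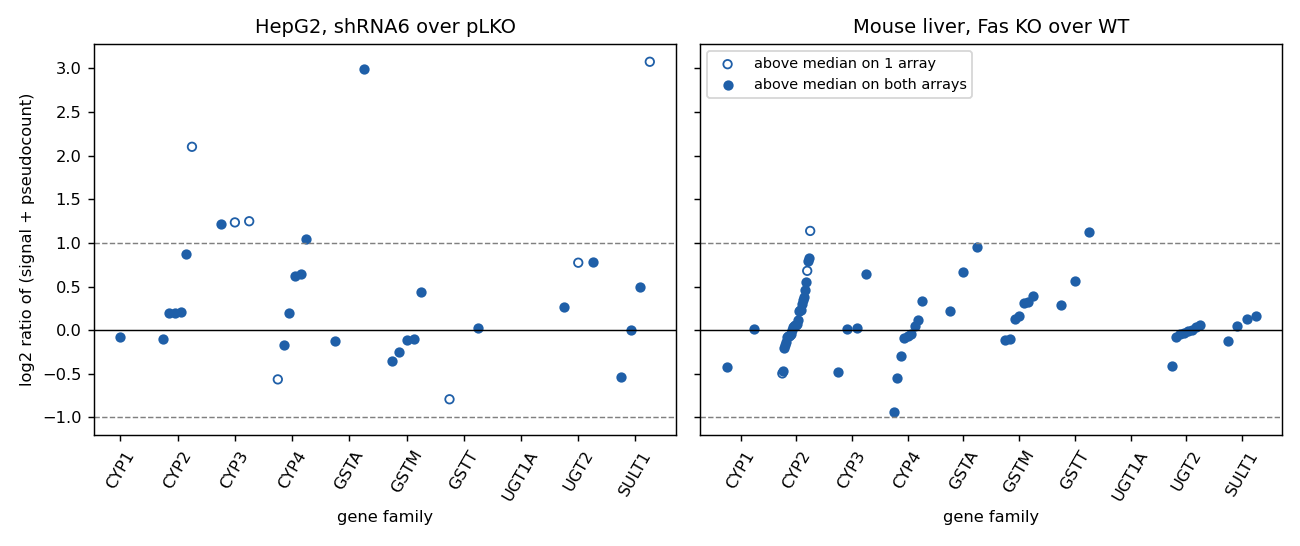
Log2 ratio of (signal + pseudocount) for every kept member by family, on the left HepG2 shRNA6 over pLKO and on the right Fas KO over WT mouse liver, with filled points for genes above the median on both arrays, open points for genes above it on 1 array and dashed lines at 2-fold. In HepG2 the CYP3 points lie between 1.21 and 1.25 and GSTA1 stands at 2.99, while in mouse liver 3 of 3 GSTA and 3 of 3 GSTT points lie above 0 and the UGT2 points lie close to 0.

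Among the phase I genes, the CYP3 family had its 3 kept members all above 2-fold in their representing sets. CYP3A enzymes oxidise a large share of medicines and hydroxylate steroids. CYP3A7-CYP3A51P, the annotation's symbol for a readthrough of CYP3A7, the main CYP3A of fetal liver, read 279 in shRNA6 and 113 in pLKO (log2 ratio 1.21). CYP3A5, a polymorphic adult form, read 98.6 in shRNA6 and 34.7 in pLKO (1.23). CYP3A43 read 132 in shRNA6 and 48.3 in pLKO (1.25). A set that names the readthrough and CYP3A7 together read 296 in shRNA6 and 159 in pLKO (0.85). For CYP3A5 and CYP3A43 only the shRNA6 array was above its median. Probe sets of this locus did not all read alike. Of the other 3 sets of CYP3A5, those above the median on both HepG2 arrays did not reach 2-fold. They read 141 in shRNA6 and 92.2 in pLKO (0.55), and 80.4 in shRNA6 and 85.8 in pLKO (-0.08). A dim set gave 0.67. The other 3 sets of CYP3A43 gave 0.53, 1.21 and 1.65. CYP3A4, the main adult form, was dim in its representing set, at 28.6 in shRNA6 and 51.0 in pLKO, and its other 4 sets gave -0.07, 0.07, 1.01 and 1.53. The sequences of CYP3A genes are closely alike and several of these sets, including those of CYP3A43 and CYP3A7-CYP3A51P, are marked as cross-hybridising, so the signal cannot be assigned to 1 gene of the cluster.

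The CYP4 family hydroxylates fatty acids and eicosanoids at their end carbon. CYP4F3, which inactivates leukotriene B4, read 1034 in shRNA6 and 494 in pLKO (1.05), a ratio that became 0.93 when arrays were scaled to equal medians. Another probe set, which names CYP4F2 and CYP4F3 together, gave 0.21. Of the 6 kept CYP4 members 4 lay above 0, with a median of 0.41. CYP4V2, a fatty acid hydroxylase mutated in Bietti crystalline dystrophy, read 123 in shRNA6 and 74.5 in pLKO (0.64) in its representing set, while another kept set read 119 in shRNA6 and 135 in pLKO (-0.16) and 2 dim sets gave -0.02 and -0.27. CYP4F11 went the other way at 49.3 in shRNA6 and 78.8 in pLKO (-0.56). CYP4F12 read 339.8 in shRNA6 and 383 in pLKO (-0.17), so members of the CYP4F cluster lay on both sides of 0.

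The CYP2 family, the largest and the one that holds most drug-oxidising P450s, had 5 of 6 kept members above 0 by their representing sets, with a median of 0.20, but other sets of 3 of these genes went the other way. CYP2D6, which oxidises many psychoactive drugs, gave 0.20 in its representing set. Its other set read 29.0 in shRNA6 and 106 in pLKO (-1.51), and a set it shares with CYP2D7 gave 0.80. CYP2A6, the nicotine oxidase, gave 0.20, and its other 3 sets, marked as cross-hybridising, gave -0.03, -0.57 and -0.998. CYP2U1 gave 0.19 and, in another kept set, -0.32. No direction is therefore given for these 3 genes. CYP2J2, an epoxygenase of arachidonic acid, read 333 in shRNA6 and 177 in pLKO (0.87). CYP2B7P, a transcribed pseudogene beside CYP2B6, read 66.3 in shRNA6 and 5.84 in pLKO (2.10), which places it barely above the median on 1 array, and a set that names CYP2B7P and CYP2B6 together read 14.4 in shRNA6 and 41.2 in pLKO (-0.99). CYP2W1, a P450 found in colon tumours, read 193 in shRNA6 and 208 in pLKO (-0.10), and CYP2E1, the ethanol-inducible form, was below the median on both arrays at 50.6 in shRNA6 and 23.2 in pLKO. The CYP1 family oxidises polycyclic aromatic compounds and is the classic target of AHR. CYP1A1 read 451 in shRNA6 and 478 in pLKO (-0.08), and the representing sets of CYP1A2 and CYP1B1 were below the median on both HepG2 arrays. The other CYP1A2 set, marked as cross-hybridising, read 219 in shRNA6 and 184 in pLKO (0.23).

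Among the phase II genes, GSTA1 stood apart from the other glutathione transferases in 1 of its 2 probe sets. These enzymes conjugate electrophiles and lipid peroxidation products to glutathione. GSTA1, the main alpha-class transferase of human liver, read 2207 in shRNA6 and 267 in pLKO (2.99). This was the widest difference of any member above the median on both arrays. Its other probe set read 148 in shRNA6 and 130 in pLKO (0.17), so the size rests on 1 of 2 probe sets. GSTA2, a neighbour of GSTA1, has no probe set here, and whether the GSTA1 sets also read it was not tested. The other kept transferases lay between -0.79 and 0.44. GSTA4, which takes 4-hydroxynonenal, read 2719 in shRNA6 and 2973 in pLKO (-0.13). In the mu class GSTM3 read 3109 in shRNA6 and 3335 in pLKO (-0.10). GSTM1, in a set marked as cross-hybridising, read 277 in shRNA6 and 201 in pLKO (0.44). GSTT1 read 1774 in shRNA6 and 1738 in pLKO (0.03), and the dim GSTT2 read 38.05 in shRNA6 and 75.05 in pLKO (-0.79). Over the 9 kept transferases 3 lay above 0, with a median of -0.11.

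The sulfotransferases inactivate hormones and small phenols. SULT1E1, which sulfates estradiol, read 124 in shRNA6 and 3.62 in pLKO (3.07), and its other probe set read 61.4 in shRNA6 and 27.1 in pLKO (0.90). Both sets were higher in shRNA6, and only 1 of the 4 readings was clearly over the array median. SULT1C2 read 433 in shRNA6 and 303 in pLKO (0.50). SULT1A1, the broad phenol sulfotransferase, gave 75.04 in shRNA6 and 74.91 in pLKO in its representing set, and 14181 in shRNA6 and 12612 in pLKO (0.17) in a set marked as cross-hybridising.

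The UDP-glucuronosyltransferases conjugate bilirubin, steroids and drugs. All 3 kept UGT2 genes lay above 0 (median 0.77) and none reached 2-fold, while a set that names UGT2A1 and UGT2A2 together read 13.9 in shRNA6 and 63.0 in pLKO (-1.51). UGT2B28, which acts on steroids, read 4493 in shRNA6 and 3731 in pLKO (0.27).  Its only set is marked as cross-hybridising, as is that of UGT2A3, so neither signal can be assigned to 1 gene. UGT2A3 read 1647 in shRNA6 and 956 in pLKO (0.78), and UGT2B4, a bile acid conjugating form, read 71.0 in shRNA6 and 36.3 in pLKO (0.77). The 2 single-gene UGT1A sets were below the median on both arrays, with UGT1A1 at 2.45 in shRNA6 and 30.8 in pLKO. The UGT1A locus was read instead by 7 probe sets that name several of its genes at once, since its transcripts share their last exons. Of these 5 were kept, and their log2 ratios lay between 1.08 and 1.97, all higher in shRNA6. Those marked as cross-hybridising read 332, 232 and 282 in shRNA6 and 112, 86.5 and 127 in pLKO. In HeyA8 pLKO the same sets read 123, 92.2 and 84.3. The set at 1.97 read 154 in shRNA6 and 29.9 in pLKO, and was kept only through the shRNA6 array. The 5 kept sets overlap in the transcripts they read and are not 5 separate observations.

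**Figure D2:**
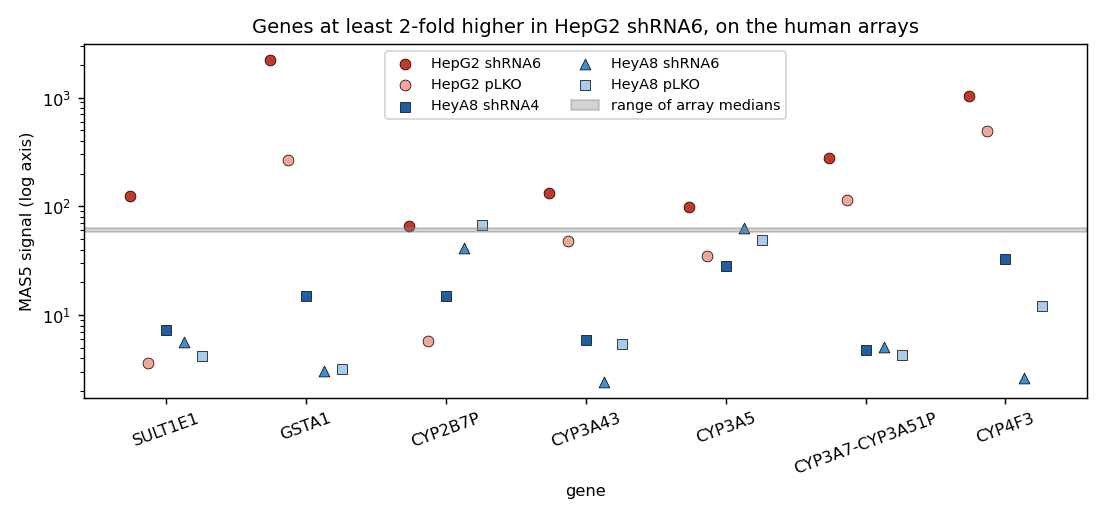
MAS5 signal on a log axis of the 7 members at least 2-fold higher in HepG2 shRNA6, on the 5 human arrays, with the grey band marking the range of the array medians. GSTA1 and CYP4F3 lie well above the band on both HepG2 arrays, SULT1E1, CYP3A43 and CYP3A5 cross it, and CYP2B7P reaches it at 66.3 in HepG2 shRNA6 and at 67.7 in HeyA8 pLKO.

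The upstream sequences of the genes with the larger differences are shown because several are known targets of liver factors. Each is the 250 bases before the annotated start, read 5′ to 3′ in the direction of transcription, from RefSeq on GRCh38.p14, where 44 of the 60 human members matched an entry. GSTA2, a neighbour of GSTA1, is given for comparison. Capitals mark the letters GTTAAT on either strand, an arm of the HNF1 palindrome, and ER6, an everted repeat (TNAACT, then AGGTCA after 6 bases of any kind) to which PXR and CAR can bind.
GSTA1, chr6:52803817-52804066, minus strand: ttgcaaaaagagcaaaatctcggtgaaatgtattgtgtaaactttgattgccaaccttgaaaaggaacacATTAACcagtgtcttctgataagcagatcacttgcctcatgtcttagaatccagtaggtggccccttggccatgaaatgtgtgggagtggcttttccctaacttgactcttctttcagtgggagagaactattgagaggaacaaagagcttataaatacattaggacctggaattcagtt
GSTA2, chr6:52763476-52763725, minus strand: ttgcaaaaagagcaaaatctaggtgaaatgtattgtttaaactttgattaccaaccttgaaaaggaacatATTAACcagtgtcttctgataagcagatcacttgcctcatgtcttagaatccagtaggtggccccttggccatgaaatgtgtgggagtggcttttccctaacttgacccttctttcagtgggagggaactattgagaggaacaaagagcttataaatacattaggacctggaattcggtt
SULT1E1, chr4:69860146-69860395, minus strand: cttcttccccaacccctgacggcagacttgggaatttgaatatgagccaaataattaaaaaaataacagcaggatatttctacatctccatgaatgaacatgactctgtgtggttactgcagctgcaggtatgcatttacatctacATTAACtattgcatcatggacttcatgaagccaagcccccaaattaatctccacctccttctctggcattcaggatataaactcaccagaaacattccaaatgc
CYP3A5, chr7:99679997-99680246, minus strand: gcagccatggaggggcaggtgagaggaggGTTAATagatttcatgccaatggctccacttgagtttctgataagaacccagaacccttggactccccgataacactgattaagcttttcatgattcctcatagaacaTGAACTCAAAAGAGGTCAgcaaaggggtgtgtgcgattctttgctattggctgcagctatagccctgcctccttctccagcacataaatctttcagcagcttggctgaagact
CYP3A7-CYP3A51P, chr7:99735197-99735446, minus strand: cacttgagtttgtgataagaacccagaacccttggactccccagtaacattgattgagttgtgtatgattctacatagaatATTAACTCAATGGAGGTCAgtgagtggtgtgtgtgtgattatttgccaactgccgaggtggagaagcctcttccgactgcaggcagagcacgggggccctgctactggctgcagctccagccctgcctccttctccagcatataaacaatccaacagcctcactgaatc
CYP3A43, chr7:99827763-99828012, plus strand: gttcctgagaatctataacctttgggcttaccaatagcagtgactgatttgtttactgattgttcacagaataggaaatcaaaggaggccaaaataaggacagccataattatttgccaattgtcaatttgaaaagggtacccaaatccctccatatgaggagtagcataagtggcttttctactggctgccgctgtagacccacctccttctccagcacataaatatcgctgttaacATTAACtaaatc
CYP4F3, chr19:15641062-15641311, plus strand: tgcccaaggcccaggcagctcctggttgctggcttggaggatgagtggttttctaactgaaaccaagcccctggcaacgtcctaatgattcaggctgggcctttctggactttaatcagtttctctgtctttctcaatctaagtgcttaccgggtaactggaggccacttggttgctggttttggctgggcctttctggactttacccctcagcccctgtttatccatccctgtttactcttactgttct

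The motifs were chosen after the differences and sequences had been seen, and a match is a description of letters, not a site in use. GTTAAT on either strand stood in 6.22% of all 27305 promoters of the same length. It stood in 5 of the 6 printed promoters of the higher genes (all but CYP4F3) and in 0 of the 17 promoters of other kept members. Its first letter lay 180 bases before the start in GSTA1 and in GSTA2, 104 in SULT1E1, 221 in CYP3A5, 169 in CYP3A7-CYP3A51P and 12 in CYP3A43. GTTAAT also stood in the promoter of UGT1A1, a member not kept in HepG2. Of the 5 higher genes with a match, 3 are CYP3A genes, whose signal cannot be assigned to 1 gene. Because the letters were chosen after these promoters had been seen, the counts are no test. ER6 stood in 9 of all promoters (0.0330%), among them CYP3A4, CYP3A5 and CYP3A7-CYP3A51P. In CYP3A7-CYP3A51P the ER6 begins 1 base inside the HNF1 arm and shares its letters. GSTA1 and GSTA2 matched at 243 of 250 bases (97.2%). TATAAA (11.1% of all promoters) stood in 3 of the 6 and in 3 of the 17. The core of the antioxidant response element bound by NRF2, TGACNNNGC (11.0% of all), and the core bound by AHR, GCGTG (31.9% of all), each stood in 0 of the 6 and in 6 of the 17.

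In HeyA8, which lacks most hepatocyte markers, no kept member was 2-fold higher in its representing set with either hairpin. Both hairpins were set against the same pLKO array, so their ratios share it. Of the 15 members kept with shRNA4, 0 were 2-fold higher (2.37% of all kept genes) and 1 was 2-fold lower (2.38% of all). That gene was CYP2B7P at 15.0 with shRNA4 and 41.8 with shRNA6, against 67.7 with pLKO. Of the 15 kept with shRNA6, 0 were 2-fold higher (2.02% of all) and 0 lower (2.21% of all). Their median ratio was -0.09 with shRNA4 and 0.19 with shRNA6. Counted by probe set, 1 of 31 kept member sets was 2-fold higher and 2 were lower with each hairpin. Of all kept single-gene sets, 2.55% were higher and 2.71% lower with shRNA4, and 2.005% and 2.48% with shRNA6. Besides CYP2B7P with shRNA4, these member sets are marked as cross-hybridising. With shRNA4 they were GSTM1 (1.15) and CYP3A4 (-2.23). With shRNA6 they were UGT2B15, at 74.5 against 30.9 with pLKO, and 2 sets of CYP2A6 (-1.33 and -2.08). GSTA1 read 15.1 with shRNA4 and 3.06 with shRNA6, against 3.20 with pLKO, and SULT1E1 read 7.33 with shRNA4 and 5.72 with shRNA6, against 4.23 with pLKO. These readings are all below the array median. The other GSTA1 set, the one that gave 0.17 in HepG2, read 63.0 with shRNA4 and 78.1 with shRNA6, against 81.1 with pLKO (-0.31 and -0.05). CYP1B1 read 91.9 with shRNA4 and 92.4 with shRNA6, against 55.2 with pLKO (0.63 and 0.63), and was kept only through the hairpin arrays, since the pLKO reading is below the median. Its other 3 sets were below the median on all HeyA8 arrays. GSTT1 read 193 with shRNA4 and 202 with shRNA6, against 325 with pLKO (-0.71 and -0.65), while its other probe set read 110.5 with shRNA4 and 111 with shRNA6, against 68.7 with pLKO (0.60 and 0.60).

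**Figure D3:**
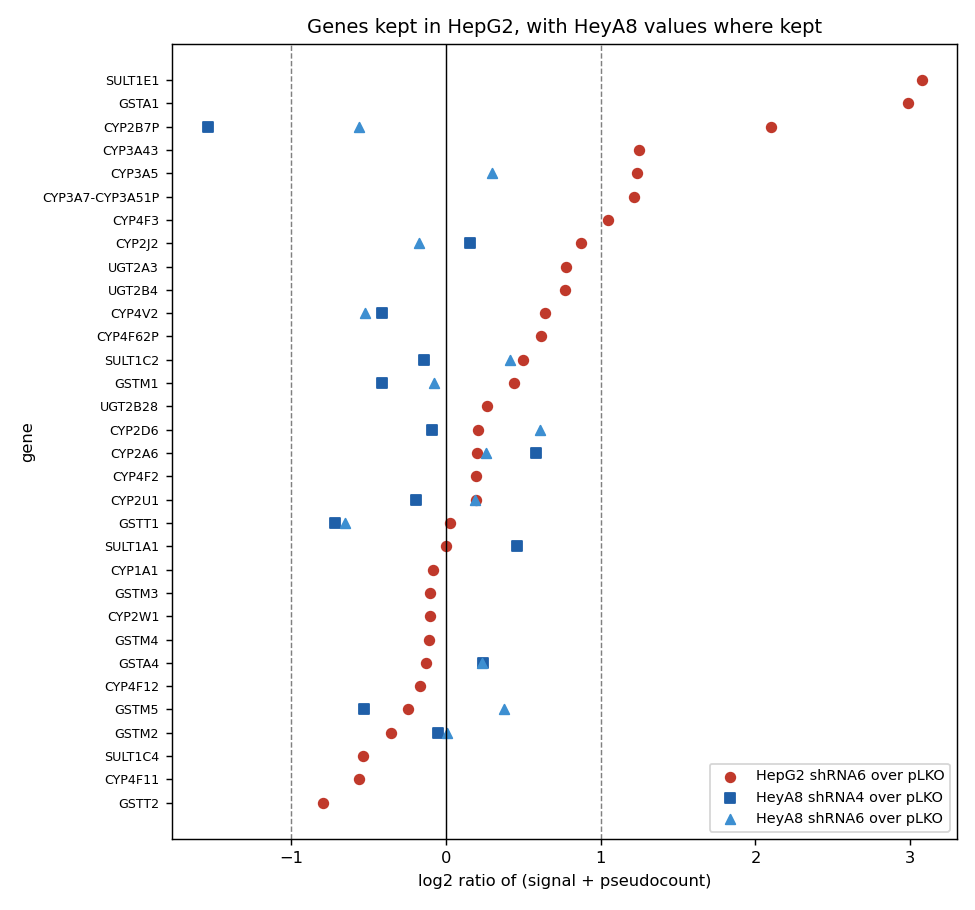
Log2 ratio of (signal + pseudocount) of the 32 members kept in HepG2, for HepG2 shRNA6 over pLKO and, where the gene was kept there, for each HeyA8 hairpin over the shared HeyA8 pLKO array, with dashed lines at 2-fold. CYP2B7P is at 2.10 in HepG2 and at -1.54 and -0.56 in HeyA8, and most of the other genes above 1 in HepG2 have no kept HeyA8 value.

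The knockdown was tested across the 5 human arrays together, with cell line and knockdown as terms in limma. There 0 of 34 members passed an adjusted p of 0.05, as did 0 of all 13936 genes (0%), and 568 genes had an unadjusted p under 0.05 (4.08%). GSTA1 had the lowest p of the members, with an effect of 1.51 ± 0.60 (SE), an unadjusted p of 0.0373 and an adjusted p of 0.991 in limma. That value includes the HeyA8 readings of its representing set, which are below the array median. Of the 34 member effects 26 were above 0, as were 51.2% of all genes' effects, and 1 of the 34 had an unadjusted p under 0.05 (2.94%). When the HepG2 effect was set against the HeyA8 effect, 0 of 34 members and 0 of 13936 genes (0%) passed. There 613 genes (4.40%) and 4 members had an unadjusted p under 0.05, and the lowest adjusted p of a member in limma was 0.999. No label names separate cultures, so these p-values measure only how the arrays scatter, possibly for technical reasons. In the common fit this scatter includes any gap between shRNA4 and shRNA6, and any unlike effect of knockdown in HepG2 and HeyA8. A ratio seen mainly in HepG2, as for GSTA1 (2.99, against 0.81 with shRNA4 and -0.01 with shRNA6), thus adds to its own error. In the fit of the HepG2 effect against the HeyA8 effect, only the hairpin gap is left as scatter. There HepG2 is taken to vary as the HeyA8 hairpins do.

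Lists of genes that work beside these enzymes were read in the same way in HepG2. Of 14 kept receptors and liver factors 9 lay above 0 and 0 reached 2-fold. RXRA, the partner of CAR and PXR, read 1040 in shRNA6 and 627 in pLKO (0.72), and AHR read 949 in shRNA6 and 1378 in pLKO (-0.53). The CAR gene NR1I3 was below the median on pLKO and just below it on shRNA6, at 62.7 in shRNA6 and 16.2 in pLKO. Of 14 kept NRF2 targets 0 reached 2-fold in either direction, with a median of 0.03; NQO1 read 21270 in shRNA6 and 21028 in pLKO (0.02). Of 21 other conjugating and oxidising enzymes 15 lay above 0 and 1 was 2-fold higher, the cholesterol sulfotransferase SULT2B1 at 79.5 in shRNA6 and 18.7 in pLKO (1.56). The drug-hydrolysing carboxylesterase CES2 read 2501 in shRNA6 and 1295 in pLKO (0.94). Cofactor and donor genes had a median of 0.16 and transporters of 0.17, with 0 at 2-fold in either list. Targets of PPARα, the fatty acid receptor, had 9 of 11 above 0, a median of 0.21 and 1 gene 2-fold higher, the pantetheinase VNN1 at 215 in shRNA6 and 87.1 in pLKO (1.19). Hepatocyte-secreted proteins had 8 of 22 above 0, with a median of -0.05, 2 genes 2-fold higher and 1 lower, and the summed signal of the 9 hepatocyte markers was 186310 in shRNA6 and 187168 in pLKO.

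Mouse liver showed the families at high signal and near balance, with the alpha, mu and theta glutathione transferases as the group that lay highest. Of 84 genes 69 were kept, and 2 were at least 2-fold higher in KO than in WT liver, where 1.77% of all 12047 kept genes were. None was 2-fold lower, against 2.57% of all kept genes. With the filter on the mean of both arrays 2 of 69 members were 2-fold higher, where 0.701% of all genes were. The median ratio was 0.05, against -0.02 over all kept genes, and 43 of the 69 lay above 0, as did 47.3% of all kept genes. That count was 39 after quantile normalization and 55 with arrays scaled to equal medians. At 1.5-fold 8 members were higher, where 4.89% of all kept genes were, and 1 was lower, where 7.63% were. The 27 members with a WT signal over 10000 lay between -0.20 and 0.24. The other 442 genes this bright had 5th and 95th percentiles of -0.17 and 0.22, and array signals this high can be compressed, which was not tested. The other 42 lay between -0.94 and 1.14. In whole tissue fewer cells of a type and less RNA per cell cannot be told apart.

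The glutathione transferases had 11 of 13 kept members above 0, with a median of 0.31 and a range from -0.12 to 1.13. Gstt3, a theta-class enzyme, read 1081 in KO and 484 in WT liver (1.13), and was the 1 member of the 66 above the median on both arrays to reach 2-fold, where 0.254% of all such genes did. Gstt1 read 10205 in KO and 6926 in WT liver (0.56), and Gstt2 read 4102 in KO and 3366 in WT liver (0.28). All 3 kept theta genes were higher in the KO sample. In the alpha class Gsta4, whose product clears 4-hydroxynonenal, read 4051 in KO and 2081 in WT liver (0.95), which scaling to equal medians took past 2-fold. Gsta2 read 2041 in KO and 1276 in WT liver (0.67), and Gsta3, the bright alpha transferase of mouse liver that detoxifies aflatoxin epoxide, read 25369.9 in KO and 21870.2 in WT liver (0.21). The alpha class too was higher in the KO sample in 3 of 3 genes. The 7 mu genes were closer together, with a median of 0.17. Gstm2 read 3007 in KO and 2286 in WT liver (0.39), Gstm1 read 17272 in KO and 15779 in WT liver (0.13), and Gstm7 read 1376 in KO and 1492 in WT liver (-0.12). The count of 11 of 13 was the same after quantile normalization and after scaling to equal medians. Kept transferases outside these classes lay closer to 0 in part. Gstp1 gave -0.06, Gsto1 -0.05, Mgst1 0.01, Mgst3 0.08, Gstz1 0.21 and Gstk1 0.34. Mu genes are closely alike, and the other 3 probe sets of Gstm1 gave -0.07, 0.02 and 0.40.

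**Figure D4:**
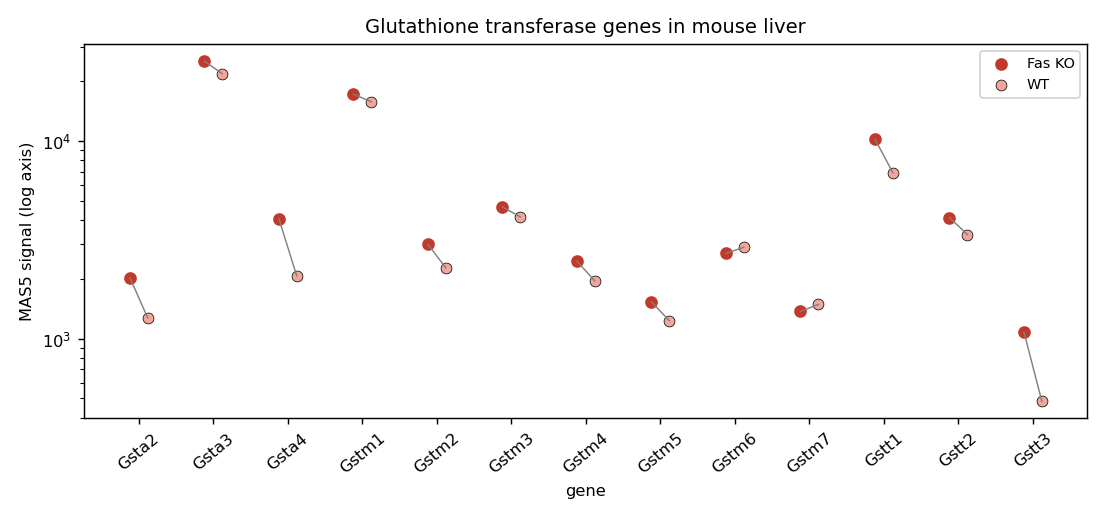
MAS5 signal on a log axis of the 13 kept alpha, mu and theta glutathione transferase genes in mouse liver. Fas KO is on the left of each pair and WT on the right, with a line joining the 2 arrays of a gene. The line slopes down from KO to WT in 11 genes, most steeply for Gstt3 (1081 and 484) and Gsta4 (4051 and 2081), and up in Gstm6 and Gstm7.

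The mouse P450s had 26 of 44 kept members above 0, with a median of 0.04, 22 of 44 with a median of -0.00 after quantile normalization, and 34 of 44 with a median of 0.12 with arrays scaled to equal medians, where the median of all genes was 0.07, so no direction is given for the P450s together. Cyp2b9, a CAR target that is higher in female than in male mice, read 137 in KO and 51.2 in WT liver (1.14) and was kept only through the KO array. Cyp2b10, the classic phenobarbital-inducible CAR target, read 116 in KO and 84.3 in WT liver (0.38), and its other 2 probe sets gave 0.21 and 0.81. Cyp2b9 and Cyp2b10 stayed near the array median. The other measured Cyp2b genes were below the median on both arrays and went the other way. Cyp2b13 read 14.1 in KO and 46.8 in WT liver (-0.96), and Cyp2b19 read 20.2 in KO and 62.6 in WT liver (-1.03). No direction is therefore given for Cyp2b genes together. Within the Cyp2c cluster, whose members hydroxylate retinoids, steroids and arachidonic acid, Cyp2c39 read 3239 in KO and 1811 in WT liver (0.83). Cyp2c38 read 1888 in KO and 1080.3 in WT liver (0.79), and Cyp2c55, an inducible form, read 448 in KO and 300.2 in WT liver (0.55). The brighter Cyp2c29, another CAR target, read 26297 in KO and 22323 in WT liver (0.24), and Cyp2c70, which makes muricholic acids, read 26468 in KO and 27336 in WT liver (-0.05). Closely alike genes of this cluster can share signal.

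Cyp2e1 read 32283 in KO and 33713 in WT liver (-0.06), and Cyp1a2 read 20823 in KO and 20561 in WT liver (0.02). Cyp1a1, its inducible relative, was dim at 87.1 in KO and 124 in WT liver (-0.42). Cyp3a11, the main mouse counterpart of CYP3A4, read 33881 in KO and 33198 in WT liver (0.03). Cyp3a13 was the CYP3 gene with the larger ratio, at 7282 in KO and 4651 in WT liver (0.64), and the female-biased Cyp3a44 read 112 in KO and 164 in WT liver (-0.48). The CYP4 family, with 3 of 9 kept genes above 0 (median -0.07, and 0.02 with arrays scaled to equal medians), held the lowest ratios. Cyp4f16 read 80.3 in KO and 173 in WT liver (-0.94), while its other set, dim and marked as cross-hybridising, gave 0.18. A set that names Cyp4f16 and Cyp4f37 together read 142 in KO and 160 in WT liver (-0.16). Cyp4b1 read 1288 in KO and 1897 in WT liver (-0.55). The PPARα target Cyp4a14 read 1993 in KO and 2062 in WT liver (-0.05), and the set that reads Cyp4a10 together with Cyp4a31 read 6488 in KO and 9757 in WT liver (-0.59).

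The remaining conjugating families of mouse liver were nearly level. The 8 UGT2 genes had a median of -0.02, which became 0.07 with arrays scaled to equal medians, where the median of all genes was also 0.07. Ugt2b5 read 26816 in KO and 26110.4 in WT liver (0.04), and Ugt2b38 read 4461 in KO and 5950.1 in WT liver (-0.41). The 3 sets that read the Ugt1a locus were all bright and gave -0.08, -0.05 and -0.04, where the 5 kept human UGT1A sets in HepG2 gave 1.08 to 1.97. Sult1a1 read 16083 in KO and 14354 in WT liver (0.16), and Sult1d1, which acts on catecholamines, read 7080.3 in KO and 6825 in WT liver (0.05). Sult1e1, the mouse counterpart of SULT1E1, was below the median on both arrays at 6.77 in KO and 20.3 in WT liver. It thus gives no mouse ratio to set beside the one in HepG2.

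Among the genes around these enzymes in mouse liver, 7 of 18 kept receptors and liver factors lay above 0, with 0 at 2-fold. Nr1i3 read 1943 in KO and 2713 in WT liver (-0.48), and Nr1i2 read 974 in KO and 924 in WT liver (0.07). Of the 12 NRF2 targets 8 lay above 0 and 0 reached 2-fold, with a median of 0.11; Nqo1 read 333 in KO and 261 in WT liver (0.33), and Hmox1 had a ratio of -0.67. Of 11 cofactor and donor genes 9 lay above 0, among them Ugdh, which makes the glucuronic acid donor, at 6741 in KO and 5179 in WT liver (0.38). One of 15 transporters was 2-fold higher, the organic anion importer Slco1a4 at 1253 in KO and 530 in WT liver (1.21). Of 27 other oxidising and conjugating enzymes 1 was 2-fold lower, the flavin monooxygenase Fmo2 at 222 in KO and 594 in WT liver (-1.34).

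Several of the mouse enzymes differ by sex or by position in the lobule, so these lists stood beside them. Of 9 male-biased genes outside the families 2 lay above 0, with Elovl3 at 7609 in KO and 2828 in WT liver (1.42), and of 8 female-biased genes 3 lay above 0. Of 9 pericentral genes, which share the zone of most P450s, 7 lay above 0, with a median of 0.32. Glul, the marker of the last hepatocytes around the central vein, read 16122 in KO and 11015 in WT liver (0.55). The 7 periportal genes had 3 above 0 and a median of -0.04. The summed signal of hepatocyte markers was 277674 in KO and 276383 in WT liver. That of the 9 Kupffer cell markers was 24213 in KO and 27930 in WT liver, with 2 of 9 above 0, and that of the 7 sinusoidal endothelial markers was 13574 in KO and 14902 in WT liver, with 1 of 7 above 0. Of the 7 T cell markers 6 were below the median on both arrays. Cholangiocyte markers summed to 237 in KO and 402 in WT liver, with Sox9 at 10.3 in KO and 147 in WT (-2.44), Epcam at 53.5 in KO and 198 in WT (-1.56) and Krt7 at 76.3 in KO and 9.55 in WT (1.69). Neutrophil markers summed to 654 in KO and 913 in WT liver, and erythroid markers to 1926 in KO and 1358 in WT liver. The part of these lists in the enzymes' ratios was not tested.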

How the data were processed

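Total RNA of 7 samples was hybridised to Affymetrix arrays (5 human, 2 mouse). What the authors deposited are linear intensities, here called signals, computed with MAS5 according to the submitters' processing notes. No source used here gives the MAS5 version or settings, and detection calls were not used here. Symbols are those of the platform annotation, and a probe set with several symbols or none stood for no gene. Each gene was read from 1 probe set, the one with the greatest mean signal, and sets of the cross-hybridising kind (_x_at) stood in only for genes without another. Single comparisons had 1 array per group and no test, and members were counted at 2-fold. Across human arrays cell line and knockdown were fitted with limma 3.58.1 (R 4.3.3) over all 13936 genes, with trended variance and 2 residual degrees of freedom, and in a second fit their interaction, with 1 residual degree of freedom. P-values were adjusted by Benjamini-Hochberg, and the code was tested on simulated data. Motifs were searched on both strands of the 250 bases before RefSeq starts (GRCh38.p14). Other steps used Python 3.11.15, numpy 2.4.6, pandas 2.3.3 and matplotlib 3.10.9.

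The members, gene lists and tests were chosen with earlier results of these data known. Named by rule were kept members at least 2-fold different, the gene of each family with the highest control signal, a fixed set of well-known enzymes, at most 4 genes per other list with the largest ratio, and FAS. Other members and list genes were named after their values were seen. Alternatives covered the pseudocount, normalization, filter, probe set rule, size threshold, variance trend and single knockdown arrays.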

Additional observations from a re-analysis of the deposited data

Results flagged for a closer look

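Several probe sets name more than 1 gene of these families, so no member count used them, and 8 of their kept readings were at least 2-fold higher with a hairpin than with the pLKO control. In HepG2 6 of 14 kept sets of this kind were higher, where 2.82% of all kept sets naming several genes were, and 1 was lower, where 2.05% were. The lower one names UGT2A1 and UGT2A2 and read 13.9 in shRNA6 and 63.0 in pLKO (-1.51). In HeyA8 shRNA4 2 of 8 were higher, where 2.13% were, and 0 lower. In HepG2, 5 sets of the shared UGT1A transcripts had log2 ratios of 1.47, 1.30, 1.08, 1.44 and 1.97. Their signals were 332 in shRNA6 and 112 in pLKO, 232 in shRNA6 and 86.5 in pLKO, 282 in shRNA6 and 127 in pLKO, 184 in shRNA6 and 59.7 in pLKO, and 154 in shRNA6 and 29.9 in pLKO. The other 2 UGT1A sets were dim and gave -1.98 and -0.85. A set of the SULT1A3 and SULT1A4 genes and their SLX1 neighbours had a ratio of 1.24 (134 in shRNA6 and 49.5 in pLKO), while 3 further sets of these genes gave 0.30, 0.31 and 0.01.

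In HeyA8 shRNA4 a set naming CYP4A22 and CYP4A11, which hydroxylate fatty acids, had a ratio of 1.56, with 87.2 with shRNA4 and 46.0 with shRNA6, against 21.2 with pLKO. The UGT1A set that gave 1.97 in HepG2 had a ratio of 2.01 in HeyA8 shRNA4, with 63.4 with shRNA4 and 4.95 with shRNA6, against 6.26 with pLKO. The difference between hairpins was not tested.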

How the results depend on the processing

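No paired analysis was possible because each group has 1 array and the groups share only replicate number 1. Of 36 named ratios, none of those at 2-fold changed sign under any alternative, and 5 smaller ones did: CYP3A4 in HepG2 (0.0721 with the median of probe sets), and, with arrays scaled to equal medians, mouse Cyp2e1 (0.0264) and Cyp4a14 (0.0397), and GSTT1 (-0.0858) and SULT1A1 (-0.0968) in HepG2, the last also with quantile normalization (-0.0838). For the counts that follow, percentages in brackets are shares of all genes kept under the same setting. The HepG2 count of members 2-fold higher, 7, became 2 of 9 with the stricter filter (0.373%). It became 2 of 32 with a pseudocount at the table median (0.773%) and 12 of 60 with no filter (6.49%). It was 12 of 32 at 1.5-fold (6.48%) and 3 of 32 at 3-fold (1.21%). None was lower except 2 of 60 with no filter (4.91%) and 1 of 32 at 1.5-fold (6.16%). The HepG2 median became 0.10 with arrays scaled to equal medians, a scaling that moved the median of all genes to -0.12. GSTA1 stayed between 1.58 (the median of its probe sets) and 3.04. The mouse count of 2 became 1 of 59 with the stricter filter (0.255%) and 1 of 69 with a pseudocount at the table median (0.340%). It was 8 of 69 at 1.5-fold (4.89%) and 0 of 69 at 3-fold (0.589%). The lower mouse count of 0 became 2 of 84 with no filter (4.75%). It was 1 of 69 with the smaller pseudocount (3.44%) and 1 of 69 at 1.5-fold (7.63%). In HeyA8 shRNA4 the higher count of 0 became 4 of 60 with no filter (5.79%) and 1 of 15 at 1.5-fold (6.21%). The lower count of 1 there became 2 of 18 with the brightest probe set (2.38%). It was 7 of 60 with no filter (5.01%) and 2 of 15 at 1.5-fold (6.73%). It became 0 of 2 with the stricter filter (0.521%) and 0 of 13 with the filter on the mean (1.27%). It was 0 of 15 with a pseudocount at the table median (0.616%) and at 3-fold (0.731%). The shRNA4 median became 0.085 with the stricter filter. In HeyA8 shRNA6 the higher count of 0 became 1 of 19 with the brightest probe set (2.06%). It was 4 of 60 with no filter (4.56%) and 2 of 15 at 1.5-fold (4.67%). The lower count of 0 there became 4 of 60 with no filter (5.19%) and 1 of 15 at 1.5-fold (6.23%). The shRNA6 median became 0.0102 with the brightest probe set, -0.12 with the stricter filter, -0.0244 with the median of probe sets and 0.0536 with no filter. In the common fit 2 of all genes passed with equal medians, neither a member, and 0 without each knockdown array. Apart from the filters and thresholds, whose construction changes the counts, the cause was not tested. Dim signals and 1 array per group limit every value.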
